A study of Mus musculus with 10 samples.

Results

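*Grem1*-lineage cells of the articular cartilage (AC) and growth plate (GP) had been sorted singly into 8 plates, and the levels of many genes divided these plates into plates 1, 2 and 4 on one side and plates 5, 6, 7, 8 and 9 on the other. The plate sets were chosen by the levels of genes in these same kept cells, since the labels number the plates and give no condition that separates them. *Actb*, *Bhlhe41*, *Btg2* and *Col10a1* are the genes that mark it. The values of genes between the 2 plate sets, and the counts of genes past a threshold, therefore describe the division and are no evidence for it. A kept cell was a well with at least 350 genes that had a unique molecular identifier (UMI, a tag that counts each captured transcript once), and 684 of 768 *Grem1* wells were kept, 262 in plates 1, 2 and 4 and 422 in plates 5 to 9. The whole series held 844 kept cells of 930 wells, the others being *Lepr*-lineage cells.

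All 8 plates came from C57BL/6 mice in which *Grem1*-creERT switches on the red reporter TdTomato (R26-LSL-TdTomato) once tamoxifen is given, here as chow for 2 weeks from 5 to 6 weeks of age. The hind limb AC and GP were cut out, digested with collagenase, and live single TdTomato+ cells were sorted. A cell therefore carries the label because it or an ancestor expressed *Grem1*, an antagonist of bone morphogenetic proteins, when tamoxifen was present, and not because it expresses *Grem1* at harvest. Which of the plates hold AC cells, GP cells or both, how many mice went into each, and their sex are not given in the labels. Plates were used as replicates, and whether they are separate animals is not stated, so the spread between plates may be technical in part. A date, operator or sequencing run that goes with the plate sets cannot be told apart from them.

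Chondrocytes build cartilage by secreting type II collagen and aggrecan, and growth plate chondrocytes go on to enlarge and switch on type X collagen before bone replaces them. *Actb* encodes cytoplasmic beta-actin, the subunit of the microfilaments that set cell shape. *Bhlhe41* is a transcriptional repressor of the circadian clock, and *Btg2* an antiproliferative gene that is among the first to be transcribed after a stimulus or stress. Immediate early genes such as *Fos* and *Egr1* answer to signals within minutes through factors that are already present, and enzymatic digestion of a tissue is a known stimulus for them.

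Summed per plate, chondrocyte markers stood above the other groups of markers in both plate sets, while single cells were not typed. The 12 chondrocyte markers, *Col2a1* and *Acan* among them, summed to between 163176 and 175068 CPM (UMIs of a gene per 1000000 UMIs of the plate) in plates 1, 2 and 4 and between 177840 and 194324 CPM in plates 5 to 9. Markers of muscle and endothelium summed to at most 374 CPM in every plate. Haematopoietic markers ranged from 1043 to 5632 CPM in plates 1, 2 and 4 and from 406 to 6076 CPM in plates 5 to 9, with *Elane*, a neutrophil protease, found mostly in 1 cell each of plates 1, 5 and 9. Osteoblast markers differed more, from 984 to 4845 CPM against 2516 to 29815 CPM. Of the growth plate markers, 3 of 11 were listed, since the table as used here stops at *Gm5763* in its alphabetical order and later genes were not analysed here. These 3, *Cnmd*, *Epyc* and *Col10a1*, summed to between 19056 and 19425 CPM in plates 1, 2 and 4 and between 16416 and 22330 CPM in plates 5 to 9.

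Kept cells held fewer UMIs in plates 1, 2 and 4 than in plates 5 to 9, though not past the threshold after adjustment. The median was 1322, 1322 and 1243 UMIs in plates 1, 2 and 4 and 1553, 1472, 1482, 1612 and 1579 in plates 5 to 9, so the sets did not overlap. Their means were 1296 ± 45.6 (SD, n = 3 plates) and 1540 ± 61.0 (SD, n = 5 plates), with a two-sided exact permutation p of 0.0179, which is the smallest that 56 arrangements allow, and 0.0893 after Benjamini-Hochberg adjustment over 5 measures. The median number of genes per kept cell was 578 ± 14.5 against 609 ± 13.6, with an exact permutation p of 0.0357 and an adjusted p of 0.0893. The number of wells kept and the share of UMIs in repeat and rRNA-like transcripts overlapped between the sets, with adjusted exact permutation p of 0.571 and 0.446.

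The division was examined in 2 cell groups. *Cnmd*-rich cells were those whose *Cnmd* UMIs exceeded the sum of *Clu*, *Cilp* and *1500015O10Rik*, and the remaining kept cells are called other cells. *Cnmd* encodes chondromodulin, abundant in growth plate cartilage, while *Clu* and *Cilp* are articular cartilage transcripts. The articular markers summed to between 4124 and 7169 CPM in *Cnmd*-rich cells and between 41584 and 54213 CPM in the other cells over all 8 plates, a difference that the grouping itself sets in part. In the other cells the 3 listed growth plate markers summed to between 5687 and 7889 CPM in plates 1, 2 and 4 and between 10230.2 and 13898 CPM in plates 5 to 9, with no overlap, and *Col10a1*, which marks the division, is among them. Their part in the shifts given for the other cells was not tested. *Cnmd*-rich cells made up 37.6%, 39.8% and 27.7% of kept cells in plates 1, 2 and 4, and 43.3%, 48.2%, 33.3%, 40.8% and 41.6% in plates 5 to 9. The shares overlapped, and their means of 35.0% ± 6.46 and 41.4% ± 5.37 were not separated by the exact permutation test (p = 0.214, adjusted p = 0.357).

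Upstream sequence is shown for the marker genes and *Fos*, as the stretches in which stimulus-response elements are looked for. The sequences come from RefSeq, build GRCm38.p6, and run 5′ to 3′ on the strand of the gene from 200 bases before the RefSeq start, stopping where the GENCODE gene begins. Capitals mark the half-site of the cAMP response element, TGACG or its complement CGTCA, or the E-box CACGTG, which basic helix-loop-helix factors bind. The *Btg2* stretch lies at chr1:134079156-134079355 on the minus strand, the *Bhlhe41* stretch at chr6:145865559-145865620 on the minus strand, the *Col10a1* stretch at chr10:34389781-34389980 on the plus strand and the *Fos* stretch at chr12:85473690-85473889 on the plus strand. 
Btg2: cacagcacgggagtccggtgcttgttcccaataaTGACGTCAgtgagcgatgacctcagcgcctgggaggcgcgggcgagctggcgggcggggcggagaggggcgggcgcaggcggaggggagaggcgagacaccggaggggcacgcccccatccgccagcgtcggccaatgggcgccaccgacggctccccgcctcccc
Bhlhe41: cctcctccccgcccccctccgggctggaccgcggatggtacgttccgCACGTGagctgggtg
Col10a1: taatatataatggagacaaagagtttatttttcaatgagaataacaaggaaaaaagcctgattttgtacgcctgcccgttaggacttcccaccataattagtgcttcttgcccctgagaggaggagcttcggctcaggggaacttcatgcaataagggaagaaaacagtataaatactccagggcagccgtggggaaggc
Fos: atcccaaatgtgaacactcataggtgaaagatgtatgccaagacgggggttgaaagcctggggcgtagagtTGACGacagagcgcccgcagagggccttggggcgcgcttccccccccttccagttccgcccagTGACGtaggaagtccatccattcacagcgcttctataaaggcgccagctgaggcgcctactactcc
In *Btg2* both half-sites overlap as 1 palindrome that starts at -166, in *Bhlhe41* the E-box starts at -153, and in *Fos* the half-sites start at -129 and -66. Over 27025 gene symbols with such a window, 17.5% held the half-site on either strand and 6.00% the E-box, counted in all 200 bases.

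*Actb* was lower in plates 1, 2 and 4 at a high level of expression. Its level, as CPM of UMIs after scaling by the trimmed mean of M values, was 7319, 8093 and 9471 CPM in plates 1, 2 and 4. In plates 5 to 9 it was 37358, 50143, 39911, 54022 and 42457 CPM. The lowest plate of the second set thus stood well above the highest of the first, and the means of 8295 ± 1090 and 44778 ± 7042 (SD, n = 3 and 5) lay 5.40-fold apart, a log2 fold change of -2.43 ± 0.17 (SE; negative values mean lower in plates 1, 2 and 4 throughout). The shift was present in *Cnmd*-rich cells, at 9166 ± 469 against 59663 ± 9759 CPM, and in the other cells, at 8622 ± 1550 against 35935 ± 4930 CPM. Nearly every cell of either set held an *Actb* UMI: after cells were thinned to 796 UMIs, 92.0% to 100% did in plates 1, 2 and 4 and 98.7% to 100% in plates 5 to 9. *Actb* lies at chr5:142903115-142906754 on the minus strand.

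*Bhlhe41* was 776, 1296 and 1647 CPM in plates 1, 2 and 4 and 3424, 5611, 4729, 5818 and 4549 CPM in plates 5 to 9. The sets did not overlap, and the log2 fold change was -1.96 ± 0.24. It was -2.15 ± 0.30 in *Cnmd*-rich cells, where the level was highest, and -1.21 ± 0.25 in the other cells, in which it was not past the threshold once plate 4 was left out. In cells thinned to 796 UMIs, 38.7% to 52.6% held a *Bhlhe41* UMI in plates 1, 2 and 4 and 68.7% to 87.2% in plates 5 to 9. Without thinning these shares were 48.2% to 60.2% and 78.7% to 89.2%. Its close relative *Bhlhe40* was 1314, 1228 and 2529 CPM against 1693 to 2343 CPM, and the sets overlapped. Of 26 clock genes, 13 were listed and 7 tested, and 1 was past the threshold (5.50% of all tested genes), *Bhlhe41* itself, by which the plate sets are marked.

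*Btg2* was 2055, 2585 and 4838 CPM in plates 1, 2 and 4 and 8854, 8054, 7205, 9804 and 7124 CPM in plates 5 to 9. Plate 4 stood nearest to the second set without reaching it, and the log2 fold change was -1.38 ± 0.24. In *Cnmd*-rich cells it was -1.92 ± 0.26. In the other cells it was -0.80 ± 0.23, and there it was past the threshold with all 8 plates but not when any 1 of plates 1, 2, 5, 6, 7, 8 or 9 was left out, with values from -1.14 to -0.56.

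*Col10a1*, the type X collagen of hypertrophic chondrocytes, was 2824, 2238 and 1221 CPM in plates 1, 2 and 4 and 5165, 4844, 5759, 4157 and 3272 CPM in plates 5 to 9. The log2 fold change over all kept cells was -1.15 ± 0.25. In the other cells the means were 2801 ± 1700 and 9820 ± 2112 CPM, a log2 fold change of -1.81 ± 0.33. In *Cnmd*-rich cells they were 1700 ± 1525 and 1434 ± 918 CPM, and the sets overlapped. The difference of these shifts, 1.80 ± 0.81 on the log2 scale, had an adjusted p of 0.491 (edgeR quasi-likelihood test, Benjamini-Hochberg). A few cells held much of the transcript, the top 3 of each plate carrying between 30.3% and 59.9% of its UMIs.

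**Figure D1:**
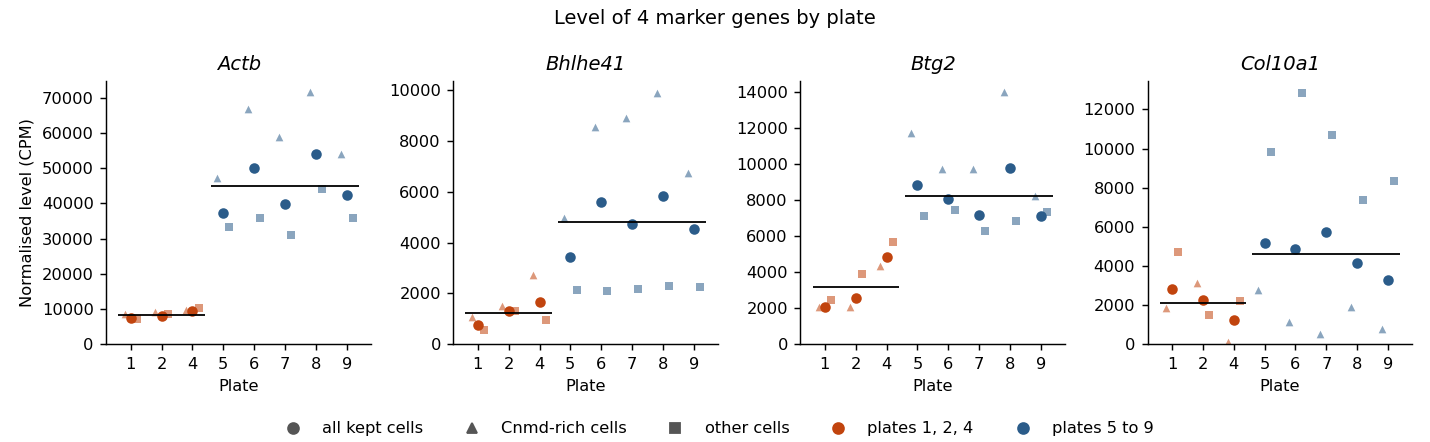
Level of *Actb*, *Bhlhe41*, *Btg2* and *Col10a1* in CPM (vertical axes, from 0) for each plate (horizontal axes), with circles for all kept cells, triangles for *Cnmd*-rich cells, squares for other cells and lines for the mean of each plate set over all kept cells. The circles of plates 1, 2 and 4 lie below those of plates 5 to 9 for each gene (*Actb* at most 9471 against at least 37358 CPM), while the triangles of *Col10a1* overlap between the sets.

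The 84 wells under the minimum of 350 genes had no part in choosing the division and held 979 to 8883 UMIs a plate. *Actb* there was 2979, 6379 and 9193 CPM in plates 1, 2 and 4 and 11683, 19720, 9212, 19025 and 9156 CPM in plates 5 to 9. The means were 6184 ± 3112 and 13759 ± 5231 CPM, with a two-sided exact permutation p of 0.107 and an adjusted p of 0.214 over the 4 genes. *Btg2* and *Bhlhe41* rested on at most 46 and 21 UMIs a plate, with adjusted p of 0.643 and 0.839. *Col10a1* was ordered the other way, at 10242 ± 13201 against 1248 ± 1161 CPM (exact permutation p = 0.107, adjusted p = 0.214), and plate 2 held 134 of its UMIs, 77 of them in 1 well. With these wells added to the kept cells, the log2 fold change of *Col10a1* became -0.90 and was no longer past the threshold.

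Across genes, 2147 passed the filter on low counts and 118 of them (5.50%) were past an adjusted p of 0.05 in the edgeR fit over all kept cells. Of these, 87 (4.05% of tested genes) were lower in plates 1, 2 and 4 and 31 (1.44%) higher, and the 2 plate sets did not overlap for 265 genes (12.3%). In *Cnmd*-rich cells 92 of 1371 genes (6.71%) were past the threshold and 195 (14.2%) did not overlap. In the other cells these were 93 of 1049 (8.87%) and 180 (17.2%). The median log2 fold change over tested genes was 0.01, 0.00 and -0.01 in the 3 fits, which the scaling sets near 0. Leaving out each plate in turn left 73 to 133 genes past the threshold over all kept cells, and 56 of the 118 were past it in all 8 of these fits. The count was 78 without plate 1 and 73 without plate 2.

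Both cell groups could be tested for 918 genes, and 35 of them (3.81%) were past the threshold in both in the same direction, 33 lower and 2 higher in plates 1, 2 and 4. Among the 33 are *Actb*, *Bhlhe41* and *Btg2*, which mark the division, and *Cilp*, which helped to group the cells. The calls of these genes are no result. The 35 genes are 38.0% of the genes past the threshold in *Cnmd*-rich cells and 37.6% of those in the other cells. Left out one at a time, the plates gave 11 to 30 such genes, with 15, 11 and 15 when plates 1, 2 and 4 were left out and 23, 22 and 22 without plates 6, 7 and 8. *Actb*, *Ctgf*, *Erdr1*, *Arglu1*, *Alkbh5*, *Birc6*, *2810474O19Rik* and *Gm11942* were past the threshold in both groups whichever plate was left out.

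**Figure D2:**
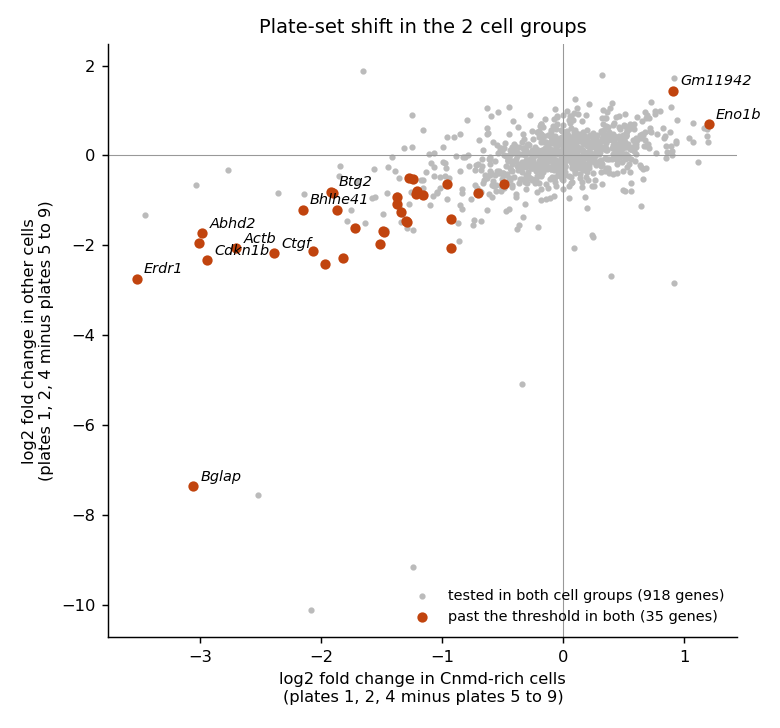
Log2 fold change of plates 1, 2 and 4 against plates 5 to 9 in *Cnmd*-rich cells (horizontal axis) and in other cells (vertical axis) for 918 genes, with the 35 past the threshold in both in orange. Of the orange points 33 lie in the lower left quadrant, *Bglap* lowest at -7.37 in other cells, and 2, *Eno1b* and *Gm11942*, in the upper right.

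Among the shared genes *Erdr1* was 62.9, 52.7 and 78.8 CPM in plates 1, 2 and 4 and 518, 650, 538, 877 and 499 CPM in plates 5 to 9. This was a 9.51-fold distance, with a log2 fold change of -3.52 ± 0.40 in *Cnmd*-rich and -2.75 ± 0.41 in other cells. *Ctgf*, a secreted matricellular protein that responds to mechanical strain through actin-regulated transcription, was 629, 912 and 1135 CPM against 4660, 4119, 4201, 4566 and 2910 CPM. Its log2 fold change was nearly the same in both cell groups, -2.39 ± 0.30 and -2.17 ± 0.22. *Abhd2*, a lipid hydrolase, lay 5.71-fold lower and *2810474O19Rik* 6.37-fold lower in plates 1, 2 and 4. *Abhd2* was not past the threshold in other cells without plate 1 or 2.

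Further shared genes, picked for description after their values were seen, follow. *Arglu1*, a splicing regulator and transcriptional coactivator, was 252, 196 and 292 CPM in plates 1, 2 and 4 against 813 to 1388 CPM in plates 5 to 9. *Cdkn1b*, the cyclin-dependent kinase inhibitor p27, was 28.0, 45.2 and 78.8 CPM against 102 to 464 CPM. *Cdk6*, which drives cells through G1, was 398, 271 and 284 CPM against 758 to 1184 CPM, in the same direction as its inhibitor. *Alkbh5*, which removes methyl groups from adenosine in RNA, had a log2 fold change of -1.29 ± 0.23 in *Cnmd*-rich and -1.48 ± 0.25 in other cells. *Crebbp*, an acetyltransferase coactivator, and *Cbx3*, a heterochromatin protein, were lower in both as well. In other cells *Crebbp* was not past the threshold without plate 1, 2, 4, 5, 6, 7 or 9, *Cdk6* not without plate 2, 4, 7 or 8, and *Cdkn1b* not without plate 1 or 2. In *Cnmd*-rich cells *Cbx3* was not past it without plate 1, 2, 4, 6 or 8, nor *Cdkn1b* without plate 1, 2, 4 or 6.

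*Clasp2*, which stabilises microtubule ends, was 83.9, 52.7 and 126 CPM in plates 1, 2 and 4 and 227 to 460 CPM in plates 5 to 9. *Abce1*, a ribosome recycling factor, was 133, 113 and 94.6 CPM against 278 to 525 CPM, and *Gm12940* 77 ± 1.73 against 352 ± 167 CPM. In *Cnmd*-rich cells *Gm12940* was not past the threshold without plate 1, 2 or 4, nor *Clasp2* without plate 2. In other cells *Abce1* was not past it without plate 4. *Birc6*, a large ubiquitin ligase, lay at -1.48 ± 0.24 and -1.70 ± 0.27 on the log2 scale in *Cnmd*-rich and other cells. The 2 shared genes on the other side were *Eno1b* and *Gm11942*, the latter a processed pseudogene at chr4:32964888-32965232. *Eno1b* was 3104, 2359 and 2443 CPM in plates 1, 2 and 4 and 888 to 1573 CPM in plates 5 to 9. In other cells it was not past the threshold without plate 1, 2, 4, 6, 7, 8 or 9. Its near-identical copy *Eno1*, an enolase of glycolysis, was 3656, 2728 and 2758 CPM against 1236 to 1987 CPM, and reads cannot be assigned between these copies with certainty.

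*Bglap*, osteocalcin of mature osteoblasts, had the largest fitted shift of the shared genes and the least even one. It was 594, 75.4 and 78.8 CPM in plates 1, 2 and 4 and 7495, 909, 5953, 1601 and 7500 CPM in plates 5 to 9. It was not past the threshold in *Cnmd*-rich cells without plate 2, 4 or 8, nor in other cells without plate 2 or 4. Of its UMIs in kept cells, 1 cell held 800 of 1158 in plate 5, 559 of 642 in plate 7 and 533 of 1098 in plate 9, and 53 of 85 in plate 1. Of all kept cells, 20 of 262 (7.63%) held a *Bglap* UMI in plates 1, 2 and 4 and 210 of 422 (49.8%) in plates 5 to 9. With the 3 cells richest in it left out of each plate, 11 of 253 (4.35%) and 195 of 407 (47.9%) did. Without those cells, an alternative chosen after the data were seen, the log2 fold change was -4.69 against -4.21 with them. *Elane*, with 1 rich cell each in plates 1, 5 and 9, was found in 15 of 85, 20 of 90 and 7 of 89 kept cells there and in 0 elsewhere. In plates 6 and 8, where the richest cell held 38 and 41 *Bglap* UMIs, 25 of 83 and 30 of 76 cells held *Bglap*. Whether *Bglap* UMIs in cells with few of them come from rich cells of the same plate was not tested. *Bglap2* and *Bglap3* lie beside *Bglap* on chromosome 3 and are close copies, so the 3 are not independent. *Col1a1*, the collagen of bone, was 1119, 1206 and 39.4 CPM against 267 to 16107 CPM and was not past the threshold.

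Of 46 immediate early and dissociation response genes, 26 were listed and 22 tested, and 12 were past the threshold over all kept cells, all lower in plates 1, 2 and 4 (background 4.05%). *Btg2*, which marks the division, is among the 12. The median log2 fold change of the 22 was -1.005, beside 0.01 over all tested genes, and 19 were below 0. *Fos* was 4390, 4295 and 5153 CPM in plates 1, 2 and 4 and 9948, 11022, 9236, 8331 and 8319 CPM in plates 5 to 9. *Egr1*, a zinc finger factor of the same early wave, was 1622, 1982 and 3617 CPM against 4064 to 6055 CPM. *Dnajb1*, a heat shock co-chaperone, was 1181, 1386 and 1765 CPM against 3830 to 5682 CPM. None of these sets overlapped.

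*Atf3*, a stress-induced repressor, had a log2 fold change of -1.11 ± 0.19, *Fosb* of -0.99 ± 0.23 and *Fosl2*, a further AP-1 subunit, of -1.24 ± 0.23. *Gadd45b* and *Gadd45g*, growth arrest genes, lay at -1.04 ± 0.22 and -1.06 ± 0.22. Genes of the list that did not pass include *Dusp1*, *Cebpb* and *Cyr61*. *Ctgf*, *Dnajb1*, *Btg2*, *Fosl2*, *Atf3*, *Fos* and *Gadd45g* were past the threshold whichever plate was left out. *Btg1*, *Egr1* and *Fosb* were not without plate 1 or 2, *Gadd45b* not without plate 2, and *Egr2* not without plate 1, 2, 5, 7, 8 or 9. Of the 12 genes, 10 had an upstream window, and 7 of these held the half-site TGACG or CGTCA in it, namely *Atf3*, *Btg1*, *Btg2*, *Dnajb1*, *Egr2*, *Fos* and *Fosb*. Of the 1115 tested genes with a window 29.1% held it, and of the 24 shared genes with a window 25.0% did. The share among early genes that did not pass was not counted, so nothing about the plate shift is read from the 7 of 10.

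The early genes were described in each cell group, with *Btg2*, which marks the division, counted among them. In *Cnmd*-rich cells 14 of 21 tested were past the threshold, all lower (beside 5.69% lower and 1.02% higher of all genes tested there), and the median log2 fold change was -1.29, while in the other cells 6 of 20 were past it on the lower side (5.82% of all), 1 on the higher (3.05%), and the median was -0.38. *Fosb* was 706, 1066 and 1137 CPM in the *Cnmd*-rich cells of plates 1, 2 and 4 against 1921 to 3226 CPM, and 526, 853 and 1001 CPM in the other cells against 390 to 1251 CPM. The difference of its shifts between cell groups was -1.37 ± 0.32, and that of *Btg2* was -1.06 ± 0.25, each with an adjusted p of 0.0996 (edgeR quasi-likelihood interaction test). This term was below 0 for 21 of 22 early genes with a median of -0.81, beside 0.03 over all 1626 tested genes. At an unadjusted p under 0.05, 12 of the 22 and 152 of all 1626 passed, and none of the 22 passed after adjustment.

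**Figure D3:**
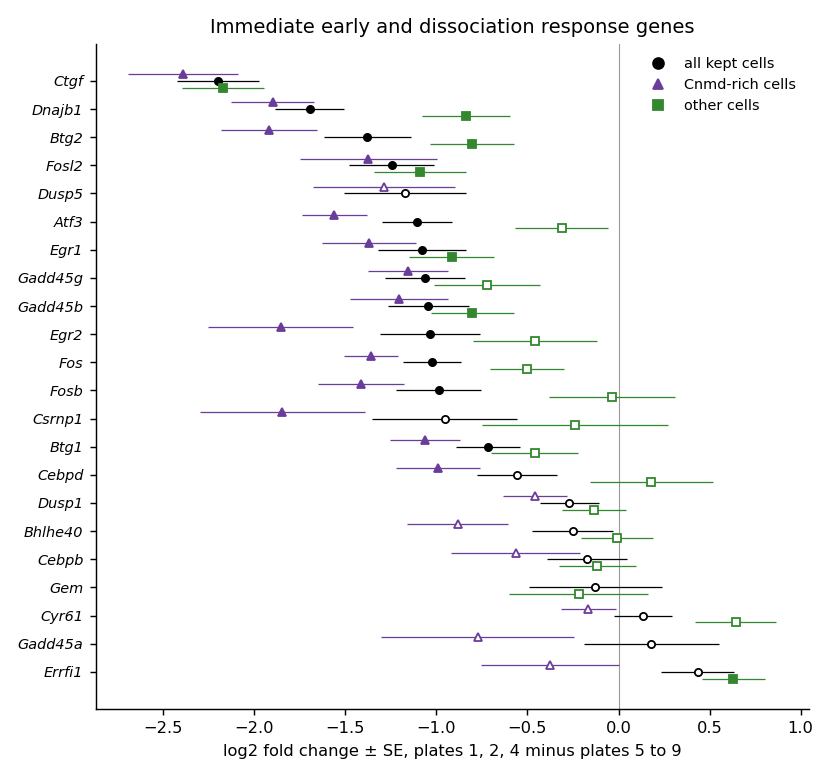
Log2 fold change ± SE of the tested immediate early and dissociation response genes (horizontal axis; plates 1, 2 and 4 against plates 5 to 9) in all kept cells, *Cnmd*-rich cells and other cells, with filled symbols past the threshold. Most triangles of *Cnmd*-rich cells lie left of the squares of other cells, as for *Fosb* at -1.41 and -0.04.

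The difference between cell groups was past the threshold for 2 of 1626 genes (0.123%). *Capza2*, an actin capping protein, was 204, 199 and 303 CPM in *Cnmd*-rich cells of plates 1, 2 and 4 and 1297, 289, 824, 788 and 462 CPM in plates 5 to 9. In the other cells it was 316, 893 and 1590 CPM against 345, 204, 304, 19.5 and 384 CPM. The term was -3.35 ± 0.57 with an adjusted p of 0.0303. Single cells held much of it, 84 of 126 UMIs in plate 5 and 47 of 124 in plate 4. *Gm24245*, a microRNA gene at chr4:139338304-139338360, had a term of 3.84 ± 0.69 (adjusted p = 0.0303), with 15 to 86 UMIs a plate. Neither was past the threshold in all fits that left out 1 plate, the count ranging from 0 to 9 genes.

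Few actin cytoskeleton genes were past the threshold, and nothing is read from their count. Of 63 genes, 41 were listed and 32 tested, and 3 were past the threshold over all kept cells, *Actb*, *Actr2* and *Arpc4*, all lower in plates 1, 2 and 4, beside 4.05% of all tested genes, and *Actb* is 1 of the genes that mark the division. *Actr2* and *Arpc4* are subunits of the complex that branches actin filaments, at -1.10 ± 0.23 and -0.97 ± 0.26. *Actr2* was not past the threshold without plate 1 or 2 (values from -1.42 to -0.97 over the plates left out), and *Arpc4* was not without plate 1, 2, 4, 5, 6 or 8 (-1.11 to -0.77). The median of the 32 was 0.18. *Cfl1*, cofilin, which severs filaments, was 1482, 1289 and 1048 CPM against 1223 to 1644 CPM. *Actg1*, the other cytoplasmic actin, was 69.9, 52.7 and 47.3 CPM against 58.3 to 128 CPM, and the sets overlapped. In *Cnmd*-rich cells 3 of 22 tested genes of the list passed, all lower (5.69% of all tested there). In other cells 2 of 20 were lower and 2 higher (5.82% and 3.05% of all). *Actb* is counted in both cell groups.

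Cartilage matrix genes lay mostly lower in plates 1, 2 and 4. Of 52 genes, 37 were listed and 31 tested, and 7 were lower and 2 higher in plates 1, 2 and 4 past the threshold (4.05% and 1.44% of all tested genes). The log2 fold change was below 0 for 23 of the 31, with a median of -0.30 beside 0.01 over all tested genes. It was below 0 for 21 of 25 in *Cnmd*-rich cells and 21 of 26 in other cells, with medians of -0.38 and -0.29 beside -0.003 and -0.01. *Acan*, the proteoglycan aggrecan, was 3523, 3587 and 3672 CPM in plates 1, 2 and 4 and 5760, 7187, 5953, 5665 and 6072 CPM in plates 5 to 9. *Chad*, a leucine-rich matrix protein that binds collagen, was 15846 to 17540 CPM against 21261 to 29627 CPM, and was not past the threshold without plate 1 or 2. *Col27a1*, a fibrillar collagen of cartilage, lay at -1.10 ± 0.18 and *Fn1*, fibronectin, at -1.01 ± 0.19. *Col2a1* itself was 41854, 43862 and 46396 CPM against 45453 to 69895 CPM, and the sets overlapped.

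*Fmod*, a small proteoglycan that guides collagen fibril growth, was higher in plates 1, 2 and 4, at 4747, 5365 and 6414 CPM against 2973 to 3870 CPM, and was not past the threshold without plate 2 or 4. *Ecm1* was 112, 143 and 150 CPM against 6.47 to 74.2 CPM, and was no longer past the threshold when any 1 of plates 1, 2 or 4 was left out, with values of 2.12 to 2.30. Outside the list, *Col3a1* (129 ± 38.5 against 30.6 ± 19.5 CPM), *Col15a1* (181 ± 7.70 against 85.7 ± 21.5 CPM) and *C1qtnf3* (1758 ± 637 against 612 ± 288 CPM) were on the same side. *Col3a1* was not past the threshold without plate 2, nor *Col15a1* without plate 1, 2, 4, 5, 8 or 9. *Col3a1* is a collagen of fibrous tissue, *Col15a1* a basement membrane collagen and *C1qtnf3* a secreted protein of growing cartilage.

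**Figure D4:**
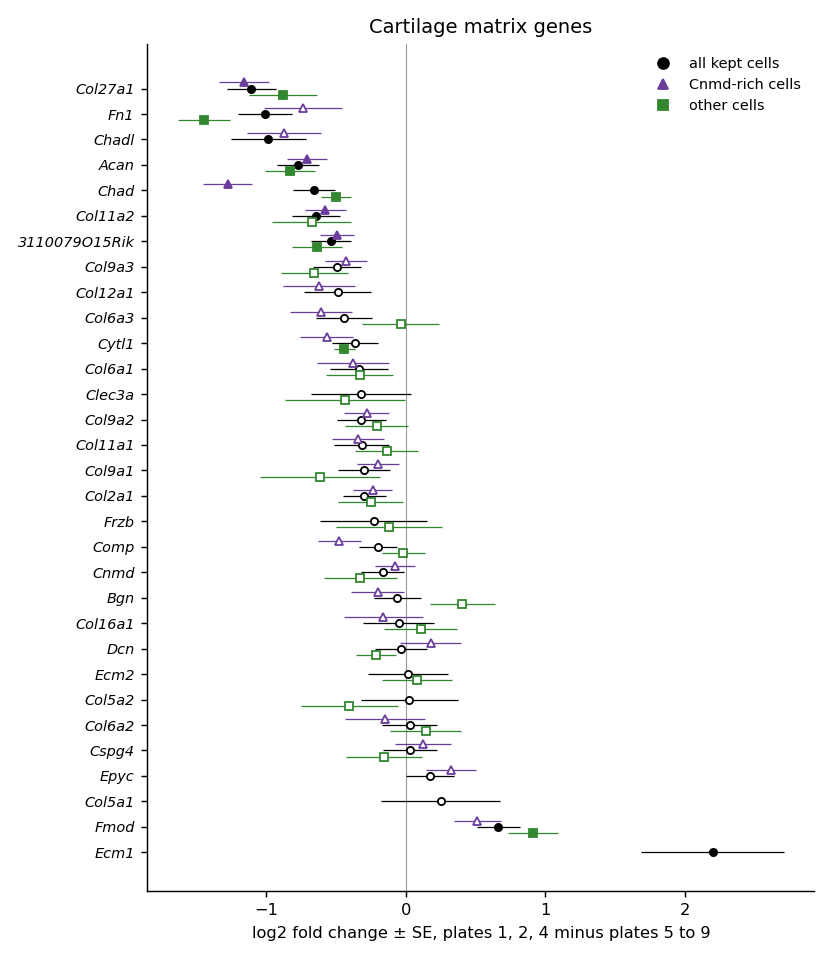
Log2 fold change ± SE of the tested cartilage matrix genes (horizontal axis; plates 1, 2 and 4 against plates 5 to 9) in all kept cells, *Cnmd*-rich cells and other cells, with filled symbols past the threshold. *Col27a1*, *Fn1* and *Acan* lie left of 0 in each cell group and *Fmod* right of 0 (0.67 over all kept cells).

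The 4 genes used to group the cells shifted unevenly over the fits. Their values within a cell group are set in part by the grouping, so their calls there are no result. *Clu*, an extracellular chaperone, was 9368, 12011 and 16681 CPM in plates 1, 2 and 4 and 5786, 5595, 9468, 6014 and 8060 CPM in plates 5 to 9. It overlapped narrowly, and was not past the threshold without plate 2, 4 or 8 (log2 fold change 0.89, 0.62 and 0.81, against 0.86 with all plates). It was higher in the other cells (0.80 ± 0.16) and at 0.05 ± 0.33 in *Cnmd*-rich cells, not past the threshold. *Cilp* was not past it over all kept cells (-0.46 ± 0.20, with overlap) and was lower in each cell group, at -1.24 ± 0.27 in *Cnmd*-rich cells, not without plate 1 or 2, and at -0.53 ± 0.15 in the others, where leaving out any plate but 5 ended the call (-0.60 to -0.48). *1500015O10Rik* was 8787, 6262 and 7675 CPM against 9048 to 18268 CPM without passing over all kept cells or in *Cnmd*-rich cells (-0.72 ± 0.22), and was lower in the other cells (-0.79 ± 0.17). *Cnmd* was 15757, 16088 and 18974 CPM against 14336 to 21466 CPM. Of the 21 genes that the study names for its plate data, 11 were listed and 8 tested. *Clu* was higher, and *Acan*, *Cd200* (549 ± 40.1 against 1000.0 ± 82.5 CPM) and *Col10a1* were lower.

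Counts for the housekeeping lists stand beside 5.50% of all tested genes past the threshold, and nothing is read from them beyond it. None of 29 tested oxidative phosphorylation genes and none of 37 translation factors was past the threshold, with medians of 0.24 and 0.04. *Eef1a1*, which brings aminoacyl-tRNA to the ribosome, was 3034, 3052 and 2868 CPM against 2575 to 3741 CPM. In the list of endoplasmic reticulum genes 1 of 26 tested passed, *Ddit3*, a stress-induced factor, at 105, 143 and 181 CPM against 278 to 669 CPM, and in that of glycolysis 1 of 9, *Eno1*. None of 7 cell cycle genes, 6 haematopoietic, 2 endothelial, 7 marrow stromal and 6 repeat or rRNA-like genes passed over all kept cells.

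A Y-linked transcript was found in plates 1, 2 and 4 and in no kept cell of plates 5 to 9. It and the sex-linked genes beside it were picked once the values were known. *Ddx3y*, an RNA helicase at chrY:1260771-1286629, had 20, 23 and 15 UMIs in the kept cells of plates 1, 2 and 4, found in 11, 15 and 13 cells, and none in plates 5 to 9. This is 39 of 262 cells (14.9%, exact 95% interval 10.8% to 19.8%, counting error only) against 0 of 422 cells (exact 95% interval 0% to 0.870%). With 3 UMIs over the set as the floor, the level was at least 35.8-fold higher in plates 1, 2 and 4. It was found in both cell groups, in 18 of 91 *Cnmd*-rich and 21 of 171 other cells. *Eif2s3y* had 13, 5 and 11 UMIs in plates 1, 2 and 4 and 1, 0, 0, 0 and 1 in plates 5 to 9.

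The X-linked partners lay the other way without passing the threshold. *Eif2s3x* was 28.0, 52.7 and 47.3 CPM in plates 1, 2 and 4 and 54.6 to 168 CPM in plates 5 to 9, with no overlap, and *Ddx3x* was 174 ± 60.5 against 336 ± 109 CPM, with overlap. The *Lepr* plates held 4 and 5 *Ddx3y* UMIs and 1 and 2 *Eif2s3y* UMIs. Whatever goes with the presence of Y-linked transcripts cannot be told apart from the plate sets. Its part in the other shifts, that of *Erdr1* among them, was not tested.

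**Figure D5:**
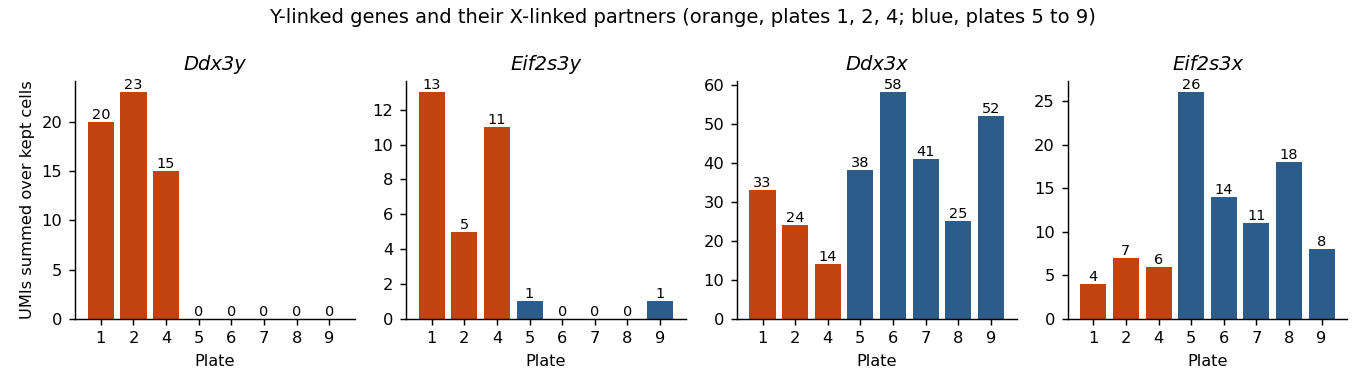
UMIs summed over kept cells (vertical axes, from 0) of the Y-linked *Ddx3y* and *Eif2s3y* and their X-linked partners *Ddx3x* and *Eif2s3x* for each plate (horizontal axes), orange for plates 1, 2 and 4 and blue for plates 5 to 9. *Ddx3y* has 15 to 23 UMIs in each of plates 1, 2 and 4 and 0 in each of plates 5 to 9.

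The plate of the first set nearest to plates 5 to 9 varied by gene. Among the 87 genes lower in plates 1, 2 and 4, plate 4 was the highest of the 3 for 47, plate 1 for 24 and plate 2 for 16. Among the 31 higher genes the lowest of the 3 was plate 2 for 13, plate 1 for 9 and plate 4 for 9. Plate 4 also had the most wells kept, 94 of 96, against 76 to 90 in the other plates. In the 2 *Lepr* plates *Actb* was 20712 and 11120 CPM, *Btg2* 622 and 200.1 CPM and *Fos* 1633 and 1817 CPM without scaling. These cells are of another lineage and tissue, and no comparison was made with them.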

How the data were processed

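Single cells were sorted into 96-well plates, and the authors deposited whole-number UMI counts per gene and well, with 1 table for the *Grem1* and 1 for the *Lepr* plates. The submitters' processing notes name UMI-tools, STAR, featureCounts, SAMtools and Seurat with build mm10, no versions given, and the study's methods name another counting pipeline without saying for which plates. The *Grem1* table as used here held 29183 genes, and 1 incomplete row was left out.

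Kept cells had at least 350 genes with a UMI. Their UMIs were summed per plate, in all kept cells, in *Cnmd*-rich cells and in the others (57206 to 106289 and 51229 to 78395 UMIs a plate, 133289 to 179071 in all), since cells of a plate are not replicates. The sums were compared with edgeR 4.0.16 (R 4.3.3; filterByExpr, TMM, quasi-likelihood test, Benjamini-Hochberg, threshold 0.05) over all genes, with 3 and 5 plates. DESeq2 1.42.0 was an alternative. The difference between cell groups was an interaction fitted to 16 sums with the plate as a block. The plate pairs the sums: deviations of the 2 sums of a plate correlated at 0.11 to 0.29 (1549 genes), those of different plates at -0.03 on average. All 96 well barcodes recur on each of the 8 plates. Doublets were not removed beyond the single-cell sort. For thinned shares, cells were drawn to 796 UMIs, leaving out 40 shallower cells in plates 1, 2 and 4 and 28 in plates 5 to 9.

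The plate sets, gene lists and tests were chosen with earlier results of these data known. Genes named were the 4 markers, shared genes of at least 100 CPM without overlap (12 largest mean shifts a direction), genes of the interaction, and for each list up to 4 genes past the threshold and the 2 of highest level. Further genes, among them the other shared genes and the Y-linked ones, were chosen after their values were seen. Plate measures were compared by two-sided exact permutation tests over 56 arrangements. Positions are from GENCODE M21 (GRCm38), which matched 97.2% of symbols. The edgeR fits were also run on simulated counts with known changes, whose rates of recovery are not given here. For the interaction the 2 sums of a plate were simulated independently, unlike the paired data.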

Additional observations from a re-analysis of the deposited data

Results flagged for a closer look

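Within plates 5 to 9, 1 plate stood apart from the other 4 in the level of 5 genes, by a gap over 0.71 of the whole range, among 61 values examined; chance alone marks about 1 in 20 such groups. *Col1a1* was 16107 CPM in plate 7, *Elane* 1735 CPM in plate 5, *Acan* 7187 CPM in plate 6, *Dad1* 1428 CPM in plate 9 and *Cbx5* 350.2 CPM in plate 6. The *Elane* value rested on 1 cell with 240 of 268 UMIs, and of the *Col1a1* UMIs of plate 7 1 cell held 1149 and 3 cells 1614 of 1737 (92.9%). The cause of the other 3 was not tested.

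With all 8 plates, the shift between the plate sets differed between *Cnmd*-rich and other cells for *Capza2* and *Gm24245*. The terms were -3.35 and 3.84 on the log2 scale, each with an adjusted p of 0.0303 (edgeR interaction test). *Capza2* was not past the threshold without plate 2, 4, 5 or 6, nor *Gm24245* without plate 1, 2, 5, 6 or 8. Of *Capza2* UMIs, 1 cell held 38 of 46 in plate 8 and 4 of 33 in plate 1. Of *Gm24245* UMIs, 1 cell held 20 of 31 in plate 1 and 2 of 15 in plate 4.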

How the results depend on the processing

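Over all kept cells the count of genes past the threshold stayed within 1.5 times of 118 under DESeq2, DESeq2 size factors, no filter on low counts, other gene minimums, 20 most abundant genes left out, thinning, and without the cells richest in *Bglap*, and ranged from 73 to 133 with 1 plate left out. With thinning the counts were 35 in *Cnmd*-rich cells, 57 in other cells and 18 shared, since fewer genes could be tested (428, 528 and 355). With at least 500 genes a cell they were 40 in other cells and 21 shared. With 1 plate left out they ranged from 43 to 96 in *Cnmd*-rich cells, 27 to 83 in other cells and 11 to 30 shared; without plate 8 other cells gave 53. The interaction count of 2 became 15 with DESeq2, 23 without the low-count filter, 13 with the stricter cell split, 0 with at least 500 genes, 0 with thinning, 0 without the cells richest in *Bglap*, 0 to 9 with 1 plate left out, and 0 with no replicate block, so that fit and the paired one differ; the cause was not tested. *Col10a1* was not past the threshold with no gene minimum (-0.90) or at least 500 genes (-0.92); the other 3 markers were past it in every fit over all kept cells that tested them (*Actb* and *Btg2* are among the 20 most abundant genes), from -2.54 to -1.16 with 1 plate left out. The share of *Cnmd*-rich cells passed an unadjusted exact permutation p of 0.05 without plate 7 only, at -8.45 percentage points (range -8.79 to -2.74). The difference in median UMIs ranged from -261 to -218 and that in wells kept from -0.40 to 5.10 with 1 plate left out. No value past the threshold changed sign in any setting. Of the other values of named genes, 1620 kept their side, 253 lost it and 12 gained it.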

Other observations

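Several transcripts outside the fixed lists lay apart between the plate sets, and were chosen after their values were seen. *Crispld2*, a secreted protein, was 175, 219 and 339 CPM in plates 1, 2 and 4 and 1049 to 1391 CPM in plates 5 to 9. Its log2 fold change was -2.77 ± 0.30 in *Cnmd*-rich cells and -0.31 ± 0.42 in other cells, where the sets overlapped. The difference of these shifts had an adjusted p of 0.0960 (edgeR quasi-likelihood interaction test). *Cst3*, the protease inhibitor cystatin C, was 17510 ± 3084 against 27013 ± 2675 CPM. The coagulation factor genes F5 and *F13a1* were 44.5 ± 4.81 against 195.5 ± 67.5 CPM and 176 ± 4.87 against 360 ± 35.3 CPM. *Arid1a* and *Arid1b*, subunits of a chromatin remodelling complex, were 87.8 ± 21.6 against 225 ± 43.9 CPM and 47.7 ± 21 against 189 ± 57.3 CPM.

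On the other side, *Cyb5r3*, a reductase, was 587, 520 and 678 CPM against 260 to 334 CPM, and *Ctsb*, a lysosomal protease, was 1227 ± 314 against 752 ± 126 CPM. *Ctsb* was not past the threshold without plate 1, 4, 5, 6, 7 or 9, *Cst3* not without plate 1 or 2, and *Arid1a* not without plate 1. Processed pseudogenes lay in both directions: *Gm13777*, *Gm5278* and *Gm11560* were higher and *Gm44431*, *Gm13422* and *Gm2830* lower in plates 1, 2 and 4. *Gm2830*, at 224 ± 17.6 against 487 ± 92.5 CPM, was past the threshold whichever plate was left out. Each of the others named here had at least 2 plates whose omission ended the call.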
